A study of Mus musculus with 5 samples.

Results

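The genes described here are the mouse SR and hnRNP splicing factor genes, taken as all protein-coding genes of the GRCm38 annotation whose symbol begins with Srsf or Hnrnp. There were 32 of them among 21887 protein-coding genes: 11 Srsf genes and 21 Hnrnp genes. Their chromatin was read from 1 deposited list of 22948 H3K27ac peaks, called over input from 4 H3K27ac libraries and 1 input library. H3K27ac is the acetylation of lysine 27 of histone H3, a mark of active promoters and enhancers. It was measured by ChIPmentation, in which the Tn5 transposase adds sequencing adapters to chromatin held by the antibody. All libraries came from bone marrow cells that were sorted as positive for CD45.2, Sca1 and Kit and negative for lineage markers, labelled HSC/MPP (haematopoietic stem cells and multipotent progenitors), with the genotype given as Mll3/4 deleted. How the deletion was made, and whether the cells came from a transplanted host, is not given in the labels. Cells with both genes intact were not analysed here, so the values describe deleted cells and hold no gain or loss.

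The list carries no value of a single library. There was therefore no replicate error, and no difference below could be tested: genes are not replicates, and counts and medians are given as a description beside those of all protein-coding genes. Read depth is unknown. Of 8 genes fixed as markers of the sorted cells, 5 had a peak at an end, among them Kit and Ptprc (which encodes CD45), while Ly6a (which encodes Sca1) and Cd34 had none. Of 8 genes of other progenitors or lineages, Pax5 and Cd79a did. Their part in the values of the splicing genes was not tested.

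Both families bind precursor RNA and steer the choice of splice sites. SR proteins join RNA recognition motifs to a tail rich in arginine and serine, which kinases of the SRPK and CLK families phosphorylate, and they mostly favour the use of nearby exons. Proteins of the hnRNP group coat nascent transcripts and often, though not always, oppose exon inclusion. Many members of both families limit their own output through alternative exons that send the transcript to decay. In blood they are known for the recurrent mutation of SRSF2 in myelodysplastic disease and for hnRNP L-like protein, which changes the splicing of Ptprc (CD45) in lymphocytes.

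Nearly every member carried H3K27ac at an end of the gene. At 29 of the 32 members, some peak reached to within 1 kb of an outer end of the gene (90.6%, 95% Wilson interval 75.8% to 96.8%, counting error only), where 36.2% of all protein-coding genes had one. The families were alike in this count, with 10 of 11 Srsf genes (90.9%, 62.3% to 98.4%) and 19 of 21 Hnrnp genes (90.5%, 71.1% to 97.3%). The 3 without such a peak were Srsf12, Hnrnph1 and Hnrnpa1l2-ps2, and they differed among themselves. Hnrnph1, which encodes a protein that binds runs of G, had one of the strongest peaks of the families 2.93 kb inside its outer start, described below. Srsf12, and Hnrnpa1l2-ps2, whose symbol marks it as a pseudogene although the annotation calls it protein-coding, had no peak within 1 kb of any annotated start. How reads that fit more than 1 place were treated is not given in the sources used here, and the lack of a called peak does not show that the mark was absent.

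The strength of a peak is given by its deposited signal value, read here as enrichment of H3K27ac over background, although the labels do not define that column. It ranks peaks within this list. Taking the strongest such peak of each gene, the median was 6.70 over the 29 members that had one (95% order-statistic interval 5.08 to 9.21), and 4.71 over the 7929 protein-coding genes with one. With genes that lack a peak set to 0, the medians were 6.46 for the 32 members and 0 for all genes. Of the 29 members, 24 lay above the median of all genes with a peak, and 11 lay in the top 10% of them, a bracket that holds 9.98% of those genes with ties. Among the 11, Hnrnpu was placed by a far-end peak that also overlaps the start of Cox20, described below. The strongest peaks of members were also wider, with a median of 1782 bp (range 383 to 4076 bp) against 1109 bp.

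**Figure D1:**
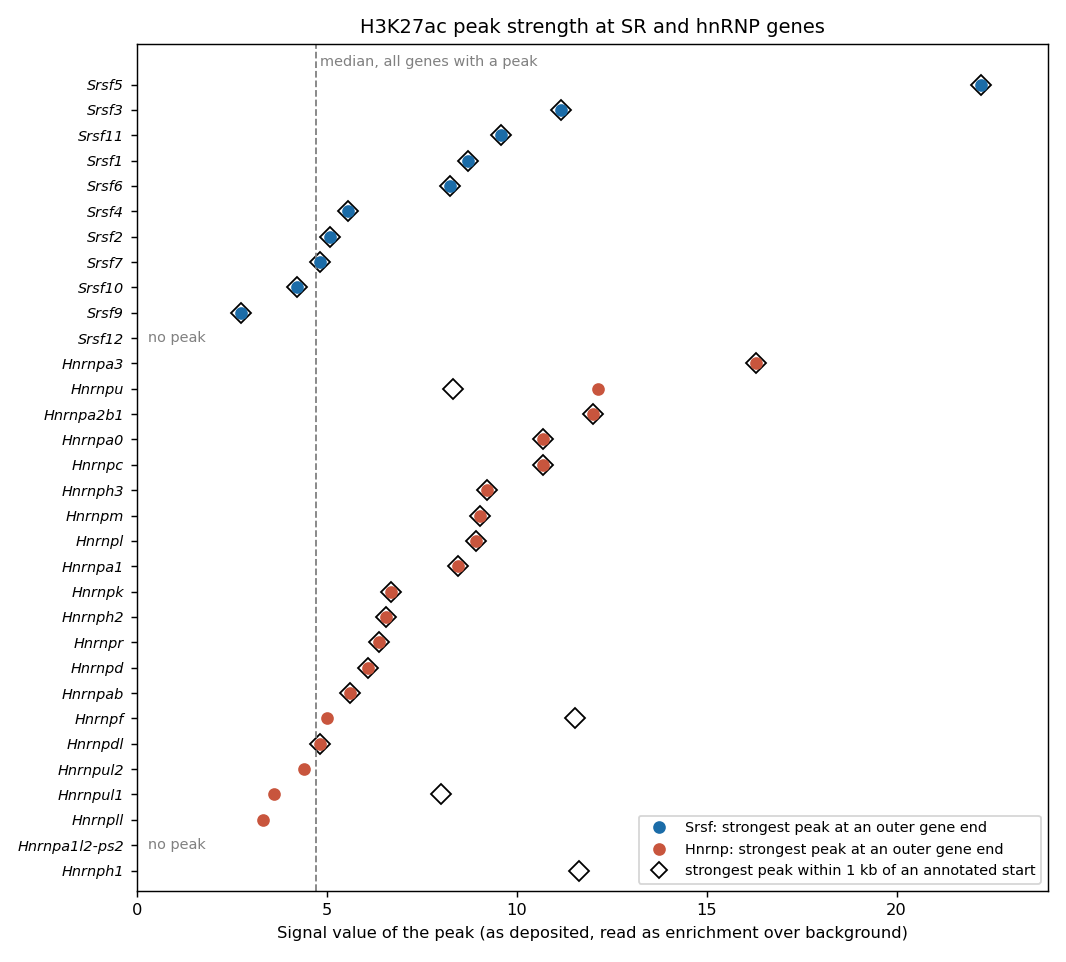
The horizontal axis gives the signal value of the strongest H3K27ac peak for each of the 32 genes, Srsf genes above and Hnrnp genes below. Filled circles are peaks at an outer gene end, open diamonds peaks within 1 kb of any annotated start, and the dashed line is the median of all protein-coding genes with a peak (4.71). Circle and diamond coincide for most genes and part at Hnrnpu, Hnrnpf and Hnrnpul1, while Hnrnph1 has a diamond only.

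Among the Srsf genes the range was widest, from the strongest of the 7929 protein-coding genes with a peak to one near the bottom of them. Srsf5, an SR gene long known as a delayed early gene of growth stimulation, had a peak on chr12:80944903-80946817 with a signal value of 22.2 and a −log10 q of 121. It ranked 1 among the 7929 genes and 4 among all peaks. Srsf3, which encodes the smallest SR protein and acts in splicing and mRNA export, followed at 11.2 (chr17:29030887-29034455), in a peak 3569 bp wide. Srsf11 had 9.58 (chr3:158035786-158037297). Srsf1, the founding SR gene (SF2/ASF), had 8.72 (chr11:88047431-88049861), and Srsf6 had 8.23 (chr2:162930512-162932463). The lowest of these 5, Srsf6, was at percentile 86.9 of genes with a peak. A step down separated them from the others, of which Srsf4 had 5.57, Srsf2 5.08 and Srsf7 4.83.

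The lowest Srsf genes lay below the median of all genes with a peak. Srsf10, whose protein turns into a splicing repressor when dephosphorylated, had 4.22 (percentile 40.7). Srsf9 had a single peak of 2.75, at percentile 7.59 of genes with a peak, with a −log10 q of 1.67. Srsf12 had none. Thus signal values among genes of 1 protein family spanned 2.75 to 22.2, almost the full span of all genes (1.84 to 22.2).

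The Hnrnp genes were led by Hnrnpa3, of the A/B group that binds nascent RNA widely, with a signal value of 16.3 on chr2:75657333-75659070. It ranked 18 among genes and 26 among all peaks. Hnrnpu, which encodes the scaffold attachment factor SAF-A, came next by the outer-end rule with 12.2. That peak (chr1:178317582-178320418) lay at the far end of the gene, with its summit 0.27 kb from an end of Cox20, whose start it also overlapped. The peak at the start of Hnrnpu itself had 8.33. Hnrnpa2b1 had 12.0 (chr6:51468135-51472210), in the widest of the peaks counted as a member's strongest, 4076 bp. Hnrnpa0 (chr13:58127411-58129859) and Hnrnpc (chr14:52102986-52104114), the gene of the core protein that binds runs of U, shared the value 10.7.

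The other Hnrnp genes with a peak ran from 9.21 to 3.33, with a step between Hnrnpa1 and Hnrnpk. In order, they were Hnrnph3 (9.21), Hnrnpm (9.03), Hnrnpl (8.94), Hnrnpa1 (8.45), Hnrnpk (6.70), Hnrnph2 (6.55), Hnrnpr (6.37), Hnrnpd (6.09), Hnrnpab (5.60), Hnrnpf (5.02), Hnrnpdl (4.83) and Hnrnpul2 (4.41). Hnrnph2 is the single member on the X chromosome. Hnrnpl and Hnrnpk encode binders of CA-rich and C-rich RNA, and Hnrnpa1 encodes the classic antagonist of Srsf1 in splice site choice. The values of Hnrnpl and Hnrnpa1 lay among those of the 5 upper Srsf genes, and that of Hnrnpk lay below them. The lowest were Hnrnpul1 (3.61) and Hnrnpll (3.33), the gene of the lymphocyte regulator of Ptprc splicing.

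Set side by side, the families could not be ranked against each other. The median of the strongest signal value was 6.90 for the 10 Srsf genes (order-statistic interval 4.22 to 11.2) and 6.70 for the 19 Hnrnp genes (5.02 to 10.7), a difference of 0.20 with the Srsf median higher. The Srsf gene was the stronger in 85 of the 190 pairs of an Srsf and an Hnrnp gene (45.0% with 1 tied pair split evenly), so the medians and the pairs point in opposite directions. The sign of the difference in medians also turned in 7 of the 9 other settings tried, to as low as -1.79. Those of the 7 that counted at starts also left out Hnrnpul2 (4.41) and Hnrnpll (3.33), whose strand is not in the table. Median widths were 1713.5 bp and 1782 bp. Of the genes with a peak, 3 of 10 Srsf genes and 8 of 19 Hnrnp genes lay in the top 10%. The 8 include Hnrnpu by its far-end peak at Cox20. The peak at its own start, 8.33, lay below the percentile 90 value of 8.91.

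**Figure D2:**
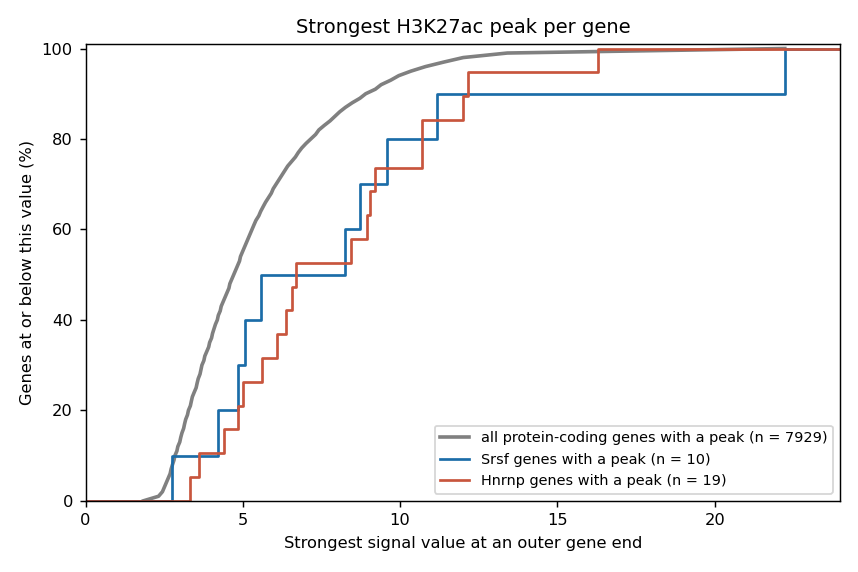
The horizontal axis is the strongest signal value at an outer gene end and the vertical axis the percentage of genes at or below it, for Srsf genes, Hnrnp genes and all protein-coding genes with a peak. The curves of both families lie to the right of that of all genes over most of the range and cross each other several times, and the last Srsf step is Srsf5 at 22.2.

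The reference promoter sequences differed widely between members. The following stretches are the bases just before the outer start of 6 members, from RefSeq (GRCm38.p6), 5′ to 3′ on the strand of the gene. They are shown to set 2 of the strong genes of each family (Srsf5, Srsf3, Hnrnpa3, Hnrnpa0) beside the weakest Srsf gene with a peak (Srsf9) and a member without one (Hnrnpa1l2-ps2). Capitals mark the letters of 4 motifs, searched on both strands of each stretch. The motif of ETS factors was taken as CCGGAAG. For the SP and KLF family of zinc finger factors the letters searched were GGGCGG. The factor NFY binds the box CCAAT, and the last motif was the core of the classical promoter box upstream of many genes, TATAAA. The longer motifs of NRF1 and YY1 were also searched and matched in none of the 6.
Srsf5: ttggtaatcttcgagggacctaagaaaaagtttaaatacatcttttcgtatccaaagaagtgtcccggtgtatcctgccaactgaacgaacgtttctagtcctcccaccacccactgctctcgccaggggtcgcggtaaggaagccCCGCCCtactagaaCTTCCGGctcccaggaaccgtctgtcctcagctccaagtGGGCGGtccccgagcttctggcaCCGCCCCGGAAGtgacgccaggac
Srsf3: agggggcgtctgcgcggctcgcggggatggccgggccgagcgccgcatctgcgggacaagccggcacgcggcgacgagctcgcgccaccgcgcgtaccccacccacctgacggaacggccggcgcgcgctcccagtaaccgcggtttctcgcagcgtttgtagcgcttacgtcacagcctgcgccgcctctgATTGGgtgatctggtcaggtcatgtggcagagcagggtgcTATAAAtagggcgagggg
Srsf9: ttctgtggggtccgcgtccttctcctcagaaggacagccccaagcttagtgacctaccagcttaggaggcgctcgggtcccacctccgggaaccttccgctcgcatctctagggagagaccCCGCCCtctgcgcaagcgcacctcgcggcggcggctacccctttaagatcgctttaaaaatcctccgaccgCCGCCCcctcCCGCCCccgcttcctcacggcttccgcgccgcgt
Hnrnpa3: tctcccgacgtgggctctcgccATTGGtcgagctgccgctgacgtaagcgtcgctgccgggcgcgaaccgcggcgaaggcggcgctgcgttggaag
Hnrnpa0: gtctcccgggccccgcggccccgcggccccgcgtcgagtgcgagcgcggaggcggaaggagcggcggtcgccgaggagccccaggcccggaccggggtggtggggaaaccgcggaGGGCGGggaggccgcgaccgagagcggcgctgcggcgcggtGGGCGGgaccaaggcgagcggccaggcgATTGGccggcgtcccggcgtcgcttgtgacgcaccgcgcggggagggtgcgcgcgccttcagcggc
Hnrnpa1l2-ps2: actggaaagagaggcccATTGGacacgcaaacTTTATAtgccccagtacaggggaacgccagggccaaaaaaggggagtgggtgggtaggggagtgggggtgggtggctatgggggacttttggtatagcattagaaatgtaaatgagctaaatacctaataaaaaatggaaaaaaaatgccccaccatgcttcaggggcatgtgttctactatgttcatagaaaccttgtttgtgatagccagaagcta

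The strongest gene did not have the richest sequence. The stretch before Srsf5 (chr12:80945249-80945494, + strand, 246 bases) held 16 CpG dinucleotides, the ETS letters once on each strand and 3 matches of the SP/KLF letters, one of which runs into an ETS match. That before Hnrnpa0 (chr13:58128557-58128806, − strand, 250 bases) held 46 CpG and that before Srsf3 (chr17:29032410-29032659, + strand) held 35. The stretch at Srsf9, with a signal value of 2.75, held 25 (chr5:115326927-115327162, + strand, 236 bases), more than at Srsf5. At Hnrnpa3 only 96 bases of the window lay before the outer start (chr2:75659009-75659104, + strand), and they held 17 CpG. Hnrnpa1l2-ps2 stood apart with 2 CpG in 250 bases (chr15:22714985-22715234, − strand).

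Over whole windows, from 250 bases before to 50 after each annotated start, members were rich in CpG. Promoter windows were in the table for 30 of the 32 members, 42 windows in all, some of which overlap within a gene. Their median was 29.5 CpG per window (14 Srsf windows 35, 28 Hnrnp windows 27.5). The median was 13 over 21263 windows of protein-coding genes and 21 over the 8071 windows whose gene had a peak at an end. The NFY letters CCAAT lay in 18 of 28 Hnrnp windows (64.3%) and 4 of 14 Srsf windows (28.6%). They lay in 38.2% of all windows and in 38.2% of those at genes with a peak. The ETS letters CCGGAAG lay in 6 of 14 Srsf windows (42.9%) and 4 of 28 Hnrnp windows (14.3%), against 11.6% of all and 20.5% of those at genes with a peak. Windows of the same gene count separately, so these are not shares of genes. Srsf4 and Srsf11 each gave more than 1 of the Srsf ETS windows, at Srsf4 from overlapping sequence. Hnrnpf gave most of the Hnrnp ETS windows. For NFY, Hnrnph1, Hnrnpa2b1 and Hnrnpf each gave more than 1 window. The SP/KLF letters GGGCGG lay in 34 of the 42 (81.0%), against 46.2% of all and 63.5% at genes with a peak. The TATA letters TATAAA lay in 5 of 42 (11.9%, against 12.6% of all and 7.11% at genes with a peak). The NRF1 motif lay in 1, at a start of Srsf11 (2.38%, against 1.33% of all and 2.47% at genes with a peak). The YY1 motif lay in 0 of 42 (against 0.889% of all and 1.86% at genes with a peak). A match of letters is a description and shows no binding.

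The peaks themselves lay over or beside starts. The 29 members had 41 peaks at their outer ends. At members whose strand is in the table, 36 of these lay at the start and 1 at the far end only, the Cox20 peak at Hnrnpu; the other 4 were at Hnrnpul2 and Hnrnpll, whose strand is not in the table used here. Of the 32 members, 12 had 2 peaks at their outer ends (4 Srsf and 8 Hnrnp genes), against 8.70% of all protein-coding genes with more than 1 peak at their ends. At Hnrnpu the 2 peaks lay at opposite ends of the gene.

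In 28 of the 30 members with an annotated start in the table, a peak lay within 1 kb of at least 1 such start, against 38.0% of all such genes. A start lay inside a peak in 21 of the 28 (75.0%, against 52.1% of the 6647 genes with a peak there). In a further 5, Srsf1, Srsf10, Hnrnpa3, Hnrnpl and Hnrnpul1, no start was inside a peak and one lay between a pair of peaks (17.9%, against 13.2%). At Srsf10 the flanking peaks were of like strength, 4.22 upstream and 3.82 downstream. At Srsf1 the downstream peak had 8.72 and the upstream one 2.49. At Hnrnpa3 the order was the other way round, with 16.3 upstream and 6.76 downstream. The remaining genes, Srsf9 and Hnrnpd, had a peak on the downstream side only.

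**Figure D3:**
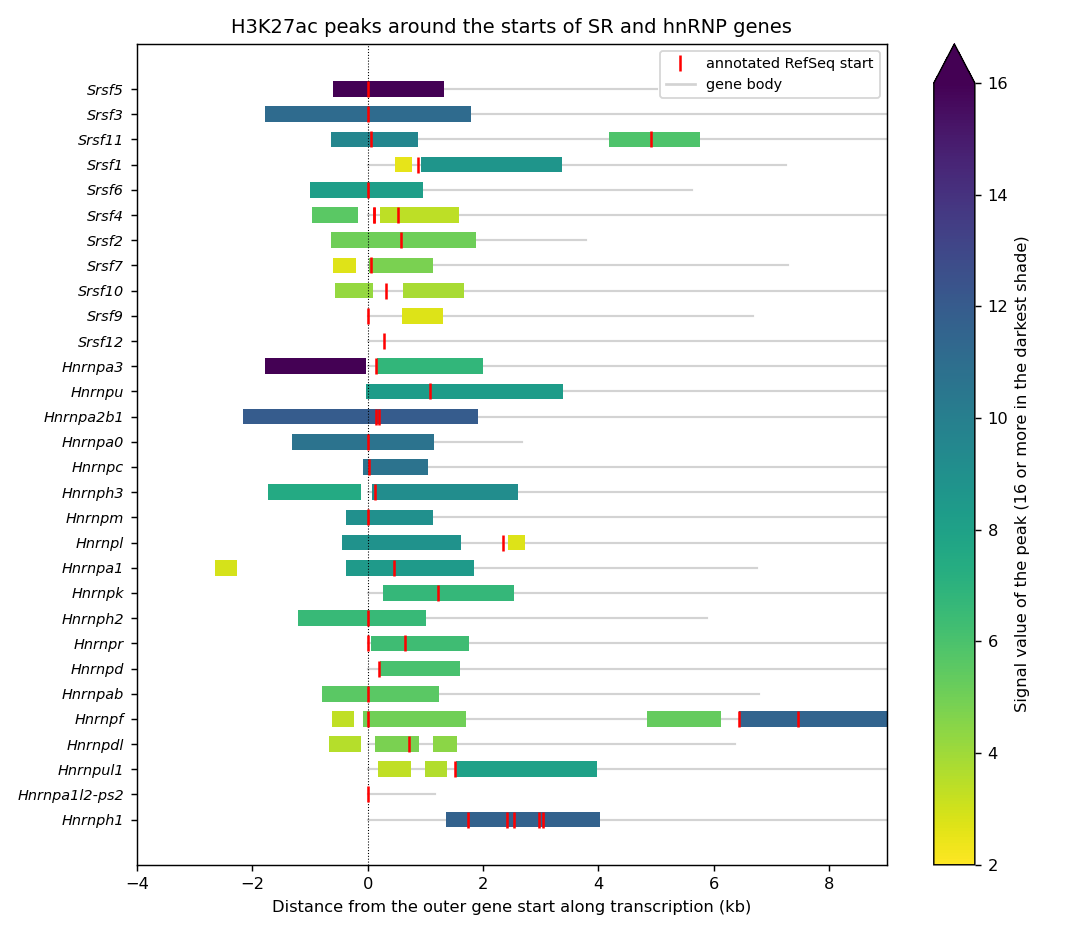
Bars show H3K27ac peaks from 4 kb before to 9 kb after the outer start of the 30 members whose strand is in the table, along the direction of transcription, coloured by signal value; red ticks are annotated starts and grey lines gene bodies. Peaks cover or flank the starts of 28 genes, Srsf12 and Hnrnpa1l2-ps2 have none, and the peaks of Hnrnph1, Hnrnpf and Hnrnpul1 with the highest values lie at starts inside the outer gene span.

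The choice of start changed the picture at 4 Hnrnp genes and at no Srsf gene. Hnrnph1 had no peak at its outer ends, yet a peak of 11.6 (chr11:50376614-50379281, 2668 bp) lay over its inner starts, with its summit at -48 bp from the nearest one; the gene has 5 annotated starts in the table. Hnrnpf, a further binder of runs of G, went from 5.02 at its outer start to 11.5 at inner starts (chr6:117906780-117910091), in a peak whose summit also lay 0.91 kb from an end of 4933440N22Rik. Hnrnpul1 went from 3.61 to 8.02 (chr7:25752292-25754733), and Hnrnpu from 12.2 to 8.33 as described above. Counted at annotated starts, a setting added after the data were seen, the median was 8.69 over 18 Hnrnp genes and 6.90 over 10 Srsf genes. This count gained Hnrnph1 and left out Hnrnpul2 (4.41) and Hnrnpll (3.33), which have no annotated start in the table. The Hnrnp median therefore does not show the effect of the choice of start alone. Of the 28 strongest peaks at starts, 18 had the summit downstream of the nearest start and 10 upstream, at a median distance of 298 bp. The farthest was at Hnrnpl, with the summit at -1975 bp (negative values lie upstream).

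Many of the peaks at Hnrnp genes reached a neighbour's end as well. Of the 29 members with a peak, 16 shared one with another protein-coding gene (55.2%), against 33.0% of all genes with a peak. The share was 68.4% for Hnrnp genes (13 of 19). For Srsf genes it was 30.0% (3 of 10), near that of all genes with a peak. By annotation alone, 9 of 30 members with a strand had the start of a gene on the opposite strand within 1 kb of their own. These were 2 of 11 Srsf genes (18.2%) and 7 of 19 Hnrnp genes (36.8%). Over both families the share was 30.0%, against 10.3% of all protein-coding genes with a strand and 21.0% of those that carried a peak at an end. Signal over such a peak cannot be divided between the genes.

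The shared starts included both Hnrnp genes that face a gene of heterochromatin protein 1. Hnrnpa2b1 and Cbx3, whose starts are 106 bp apart, shared the peak of 12.0. This gene pair is known in biotechnology as the source of a ubiquitous chromatin opening element that keeps transgenes active. Hnrnpa1 and Cbx5, whose starts are 39 bp apart, shared the peak of 8.45. Other pairs of starts on opposite strands were Srsf11 with Lrrc40 (15 bp, 9.58), Hnrnph3 with Pbld2 (73 bp, 9.21 and 7.50), Srsf7 with Gemin6, a gene of the SMN complex that assembles spliceosomal particles (135 bp, 4.83 and 2.66), Hnrnph2 with Gla (174 bp, 6.55), Hnrnpd with 4930524J08Rik (195 bp, 6.09) and Hnrnpc with Rpgrip1 (202 bp, 10.7). The genes of Srsf2 and Mfsd11 overlap head to head, with starts 1464 bp apart under 1 peak of 5.08. Hnrnpk with Rmi1 (1095 bp, 6.70) and Hnrnpdl with Enoph1 (908 bp, 4.83) also overlap head to head, with a peak within 1 kb of both starts.

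Peaks away from gene ends were counted next. Distal peaks, with the summit over 1 kb from every protein-coding gene end and within 50 kb of an end of the member, numbered 47, with a median of 1 per gene in each family and 0 over all protein-coding genes. At least 1 was found at 23 of the 32 members (71.9%, against 44.0% of all), 7 of 11 Srsf and 16 of 21 Hnrnp genes. This count was 14 of 32 (43.8%) when peaks needed a −log10 q of 5, against 22.9% of all protein-coding genes. It was also 14 when they needed a signal value of 4, against 21.6%. Over the 47 the median signal value was 3.82 (range 1.83 to 11.6), against 2.97 over all 15480 distal peaks. Of the 47, 7 were also counted as peaks at an end, because they reached the window while their summit lay outside it. Only 16 had an end of the member as the nearest gene end and 12 lay inside the member. Within 1 kb of an annotated start of any gene in the promoter table lay 15 of the 47, against 10.1% of all distal peaks, and for 10 of them that start was one of the member itself.

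Among the strongest distal peaks, first stood the inner-start peak of Hnrnph1 (11.6), then a peak of 10.1 at 37.1 kb from Hnrnpc (chr14:52139714-52142404), inside Rpgrip1. Hnrnpu had one of 8.97 (chr1:178368166-178370209), 30.5 kb before its outer start, outside any protein-coding gene and with Hnrnpu as the nearest gene end. It was the strongest distal peak over 10 kb from a gene of either family that had the member as its nearest gene. The peaks of Srsf1 (8.72), Hnrnpu (8.33) and Hnrnpul1 (8.02) were those at their starts. Srsf12, without a peak of its own, had a peak of 7.93 at 13.9 kb, inside Pnrc1, and Srsf10 had one of 7.56 at 6.18 kb, nearer to Pnrc2.

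By number, Hnrnpa3 had the most distal peaks, with 6, of which 3 lay inside the neighbouring Nfe2l2 and 1 was the downstream peak at its own start. Hnrnpab had 4, all with another gene nearer and none above 3.70. Srsf7, Hnrnpl, Hnrnpf, Hnrnpul1 and Hnrnpll had 3 each. Srsf2, Srsf4, Srsf6, Srsf9, Hnrnpa0, Hnrnpk, Hnrnpm, Hnrnpd and Hnrnpa1l2-ps2 had none. Srsf5, with the strongest peak at an end, had a single distal peak of 2.32.

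**Figure D4:**
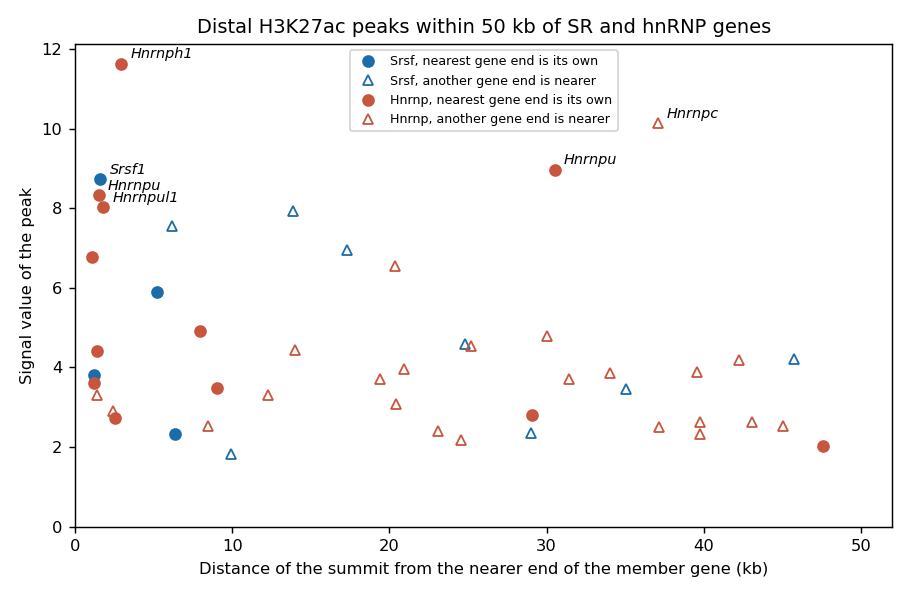
Each point is a distal peak, placed by the distance of its summit from the nearer end of the member (horizontal, kb) and its signal value (vertical); filled circles have the member as nearest gene end, open triangles another gene. Beyond 10 kb nearly all points are triangles with values under 8, and the peaks at Hnrnpc (10.1) and Hnrnpu (8.97) stand above them.

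The rest of the splicing machinery was read from 3 further lists. Of 14 SR kinases and SR-related genes, 12 had a peak at an end (median signal value 8.37), of 14 hnRNP-related genes without the prefix 13 (median 5.17), and of 29 core spliceosome genes 27 (median 5.88). The highest of these 57 genes were Clk1, a kinase of SR proteins (18.5), Tra2a (16.4) and Tra2b (14.3), genes of SR-like exon activators, Pcbp1, which encodes a poly(C) binder related to hnRNP K (13.0), and Prpf4, a gene of the tri-snRNP (12.6). Among the kinases Srpk3 had no peak, and Srpk2 had one of 6.64 at an annotated start but none at its outer ends. The same held for Ptbp2, the neuronal relative of the polypyrimidine tract binder, with 6.43.

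Genes of other machinery that all cells use were counted in the same way. Of 40 proteasome subunit genes 33 had a peak (82.5%), with a median of 4.86 and 0 in the top 10%. Of 91 cytosolic ribosomal protein genes 78 had one (85.7%), with a median of 6.09 and 14 in the top 10%. The SR and hnRNP genes had 90.6%, and the differences between these lists were not tested.

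**Figure D5:**
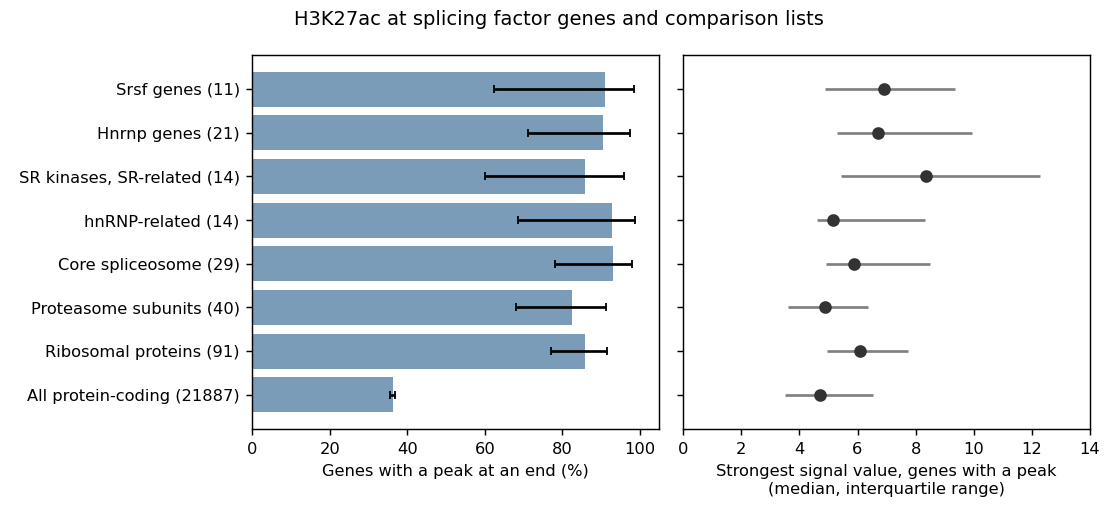
Left, bars (from 0) give the share of genes that have an end peak, in percent, with 95% Wilson intervals, for the lists named with their gene numbers; right, points give the median and lines the interquartile range of the strongest signal value over genes with a peak. The splicing, proteasome and ribosomal lists lie above 80%, against 36.2% of all protein-coding genes, and the SR kinase and SR-related list has the highest median, 8.37.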

How the data were processed

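The submitters' processing notes list BWA, MACS2 and the build mm10 without roles or versions; filters and the rule that joined libraries are not given in the sources used here. The deposited signal value was read as a ratio, enrichment over background, which the labels do not define. The deposited score was the whole-number part of 10 times the −log10 p, at most 1000, in 22939 of 22948 peaks (tolerance 1e-09). The authors deposited p-values and q-values as −log10. The lowest −log10 p was 2.01, and 4859 peaks had a q-value above 0.05. All of these are the authors' values.

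Gene ends came from RefSeq GRCm38.p6 and strands and starts from its promoter table, which covers 17492 of 21887 protein-coding genes. Summits lay within 1 kb of a gene end in 32.5% of peaks, against 5.36% and 5.55% after moves of 50 kb down and up, so the builds were taken as the same. Overlap needed 1 bp. Coordinates are 1-based. Counting was done in Python 3.11.15 with pandas 2.3.3 and SciPy 1.17.1 and was tested on simulated peaks. The members, lists and settings were chosen with earlier results of these data known. All members are named; of the other splicing genes, the 5 highest and kinases without a peak, with Ptbp2 added after its values were seen. Some of the cell marker results are not reported here.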

Additional observations from a re-analysis of the deposited data

How the results depend on the processing

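Of 99 recomputed values, 77 stayed within the interval or the factor of 1.5 set for them, 15 moved and 7 changed sign. The number of members with a peak at an end ran from 26 to 30 of 32. The Srsf minus Hnrnp difference of medians, 0.20 as reported and 0.25 with 2.5 kb, was -0.21 when peaks needed a −log10 q of 5 and equally when they needed a signal value of 4. It was -1.13 with 500 bp and with at least 50% of the peak inside the window, -1.23 by the summit, -1.42 at gene starts only and -1.79 at any annotated start (added after the data were seen). Both settings at starts also left out Hnrnpul2 (4.41) and Hnrnpll (3.33), whose strand is not in the table. Their differences are therefore not those of the choice of start alone. The cause of the changes in sign was not tested.

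Distal counts followed the threshold and the reach. With −log10 q of at least 5, 14 members had a distal peak (9 Hnrnp genes), with 21 peaks in all, 7 at Srsf and 14 at Hnrnp genes. With a signal value of at least 4 these were 14, 9, 20, 7 and 13. A reach of 25 kb gave 29 pairs of a member and a distal peak, 20 of them at Hnrnp genes. One of 100 kb gave 81 pairs, 20 at Srsf and 61 at Hnrnp genes. A peak within reach of several members counts once for each. Pairs over all protein-coding genes are not given here.

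No paired analysis was possible because replicates were merged into 1 peak list before deposit; for that reason leaving out a library was not run. Read depth is unknown, so the precision of weak peaks such as that at Srsf9 (2.75) was not measured.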
